A study of Homo sapiens with 8 samples.

Results

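The cyclin-dependent kinase (CDK) inhibitors of the CIP/KIP and INK4 families were followed in 2 human prostate cancer lines, LNCaP and PC3, with or without activated Notch1. The members were the probe sets to which the array annotation gives exactly 1 gene symbol equal to CDKN1A, CDKN1B, CDKN1C, CDKN2A, CDKN2B, CDKN2C or CDKN2D. They came to 12 of the 12558 tested probe sets and stood for 6 of the 7 genes, with 7 probe sets for the 3 CIP/KIP genes and 5 for 3 INK4 genes. CDKN2C was not analysed here.

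RNA was hybridised to Affymetrix U95Av2 arrays, which read each gene with sets of short oligonucleotides, in 4 groups of 2 arrays each, a GFP and a Notch1 group of either line. PC3 cells, from a metastasis in bone, do not need androgen to grow. LNCaP cells, from a metastasis in a lymph node, respond to androgen. The Notch1 groups overexpressed activated Notch1, which needs no ligand to signal, and the controls of both lines carried green fluorescent protein (GFP) in its place. The series describes the activation as acute, while the sources used here give neither the delivery vector used for these arrays nor the time of harvest. The methods state that 2 chips were made per sample, so the p-values measure only how far these arrays spread, possibly for technical reasons, and 2 arrays a group limit the precision of every value. RNA was taken from whole cultures, so that a higher level per cell and a larger share of expressing cells cannot be told apart.

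CDK inhibitors slow the cell cycle by binding the kinases that drive it. The CIP/KIP proteins p21 (CDKN1A), p27 (CDKN1B) and p57 (CDKN1C) bind complexes of cyclins with several CDKs, above all CDK2, and can arrest cells in G1. The INK4 proteins p16 (CDKN2A), p15 (CDKN2B) and p19 (CDKN2D) bind CDK4 and CDK6 alone, keep them from the D-type cyclins and so leave the retinoblastoma protein in its growth-restraining form. Control of p21 and p15 is known to be mainly transcriptional, with TGF-beta acting on both through SMAD proteins, whereas p27 is largely set by its degradation, which begins when the ubiquitin ligase SCF-SKP2 recognises it with the help of CKS1B. CDKN2A also encodes ARF in another reading frame.

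Upstream sequence was available from RefSeq (GRCh38.p14) for 5 of the 6 genes. The 250 bases before the start of CDKN1A and of CDKN2B are shown because these genes made the largest response in PC3 and in LNCaP. Capitals mark the GC box GGGCGG or its reverse complement CCGCCC, to which SP1 is known to bind.
CDKN1A, chr6:36678464-36678713, plus strand: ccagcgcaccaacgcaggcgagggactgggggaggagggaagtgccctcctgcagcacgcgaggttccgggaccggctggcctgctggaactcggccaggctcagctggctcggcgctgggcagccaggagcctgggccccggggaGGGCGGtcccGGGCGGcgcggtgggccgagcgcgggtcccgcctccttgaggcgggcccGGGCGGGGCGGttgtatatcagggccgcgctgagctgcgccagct
CDKN2B, chr9:22009306-22009555, minus strand: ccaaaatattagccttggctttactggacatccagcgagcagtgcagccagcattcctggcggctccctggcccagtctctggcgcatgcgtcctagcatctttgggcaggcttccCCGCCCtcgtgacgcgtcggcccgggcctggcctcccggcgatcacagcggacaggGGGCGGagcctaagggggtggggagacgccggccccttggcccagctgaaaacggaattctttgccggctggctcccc
The CDKN1A window held 4 GC boxes, the last 2 overlapping by 1 base, and the CDKN2B window held 2. Of the 6 windows of these genes (2 for CDKN2A, 1 for each of the others) 5 held at least 1, against 42.6% of all 34788 RefSeq windows of this length. The core of sites for CSL, the DNA-binding partner of Notch (TGGGAA or TTCCCA), was in 0 of the 6 against 20.8% of all windows, and the SMAD box (CAGAC or GTCTG) in 1, at CDKN2A, against 38.0%. These matches describe the letters in short windows and are no evidence of binding.

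Arrays of a group correlated at 0.995 to 0.998 over probe sets. Between 31.9% and 37.6% of probe sets on an array lay under log2 5, where a difference depends much on background, and this level is used below to mark low signals. HES1, a canonical Notch target, was read at 7.92 and 8.08 on the PC3 GFP arrays, 10.5 and 10.6 with Notch1, 8.41 and 8.47 on the LNCaP GFP arrays and 11.2 with Notch1 on both, all on the log2 scale. NOTCH1 itself was not analysed here. On the GFP arrays 4 of 6 LNCaP identity genes were higher in LNCaP and 1, KRT18, was lower (-1.42), while 7 of 10 PC3 identity genes were lower in LNCaP and 1, TGFBI, was higher (0.88). KLK2, a kallikrein of luminal prostate cells, had 4.45 in PC3 GFP and 9.64 in LNCaP GFP, and CAV1, a caveolin, 8.98 and 1.66. Of 12 leukocyte and fibroblast markers 0 were called in either line by limma, against 6.2% of all probe sets in PC3 and 17.3% in LNCaP. At an unadjusted p under 0.05, 3 were lower in PC3 and 0 in LNCaP, against 13.9% and 14.3% of all. Their mean log2 level lay between 5.17 and 5.73 on every array, but single markers did not. On the GFP arrays 3 of the 12 were higher in LNCaP and 1 lower, against 40.3% and 18.5% of all probe sets. LUM had 0.95 in PC3 GFP and 6.39 in LNCaP GFP, COL1A2 had 7.81 and 3.90, and COL1A1 had 8.31 and 8.04. Markers of the lines moved beside the results that follow. With Notch1, 4 of 6 LNCaP identity genes fell in LNCaP, against 9.32% of all probe sets (list mean 9.73 to 9.89 on GFP arrays, 9.04 to 9.29 on Notch1 arrays). In PC3 5 of 10 PC3 identity genes rose, against 4.19% of all (list mean 7.72 to 7.85, then 8.18 to 8.26). In LNCaP 1 of the PC3 identity genes rose, ANXA1 by 3.24, against 8.01% of all. Their mean there went from 4.20 on both GFP arrays to 4.55 and 4.62. The part of this in the changes of the CDK inhibitors was not tested.

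p21 made the strongest response of the family in PC3. CDKN1A (probe set 2031_s_at) had log2 values of 6.45 and 6.36 on the PC3 GFP arrays and of 8.28 and 8.00 on the PC3 Notch1 arrays. On the LNCaP arrays it had 11.1 and 11.2 with GFP and 11.3 and 11.2 with Notch1. The PC3 arrays with Notch1 thus lay well above those with GFP and well below every LNCaP array, and in LNCaP the groups overlapped. CDKN1A rose 3.34-fold in PC3 (log2 change 1.74, SE 0.13, adjusted p = 1.90e-05). In LNCaP the change was 0.10 (95% interval -0.19 to 0.38, adjusted p = 0.693). The effects of Notch1 in the lines differed by -1.64 (LNCaP minus PC3, adjusted p = 0.000278).

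p27, which shares its CDK-binding region with p21, did not share this response. CDKN1B was read by 3 probe sets. At 2034_s_at the log2 values were 6.08 and 5.92 in PC3 GFP, 5.62 and 5.58 in PC3 Notch1, 6.87 and 6.55 in LNCaP GFP and 6.91 and 6.82 in LNCaP Notch1. Both PC3 Notch1 arrays were below both GFP arrays, by 0.40 on average (95% interval -0.70 to -0.10), which missed the threshold (adjusted p = 0.105) and passed it with the replicate number as a block (adjusted p = 0.0436). In LNCaP the value was 0.16 (adjusted p = 0.508). The effects in the lines differed by 0.56 at this probe set (adjusted p = 0.0756), a value called with the replicate block (adjusted p = 0.0309) and when LNCaP GFP replicate 1 was left out (0.71, adjusted p = 0.0446). At 33847_s_at the PC3 GFP arrays stood far apart, at 5.08 and 6.18, around PC3 Notch1 values of 5.62 and 5.80, and the LNCaP values were 7.22 and 7.82 with GFP and 7.44 and 7.43 with Notch1. The changes there were 0.08 in PC3 and -0.08 in LNCaP, with intervals wide enough (-0.58 to 0.74 and -0.74 to 0.58) to hold the value of the first probe set. The 33848_r_at set, of a type made with relaxed probe selection, gave 1.94 and 2.46 in PC3 GFP, 2.06 and 2.40 in PC3 Notch1, 4.55 and 5.10 in LNCaP GFP and 4.94 and 4.96 in LNCaP Notch1. All but 1 of these values were under log2 5, and the changes were 0.03 and 0.12. Across the 8 arrays the last 2 probe sets correlated at r = 0.977 and each with the first at 0.831 and 0.908, over arrays that include the difference between the lines.

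p57, an imprinted gene known for roles in development and differentiation, was low. CDKN1C lay under log2 5 on all 8 arrays at 2 of its 3 probe sets. At 1787_at the PC3 values were 3.36 and 2.79 with GFP and 2.98 on both Notch1 arrays, and the LNCaP values 3.24 and 3.10 with GFP and 3.35 and 3.14 with Notch1. At 38673_s_at they were 4.08 and 3.86, then 3.98 and 3.69 in PC3, and 3.76 and 3.52, then 3.73 and 3.57 in LNCaP. Only 39545_at stood above that level, with 5.49 and 5.31 in PC3 GFP, 5.15 and 5.26 in PC3 Notch1, 6.12 and 6.09 in LNCaP GFP and 6.09 and 6.26 in LNCaP Notch1. None of the 3 was called by limma in either line. The changes were -0.19 to -0.09 in PC3 and 0.01 to 0.08 in LNCaP, with 0 of the 6 at an unadjusted p under 0.05.

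In LNCaP the called genes were CDKN2B and CDKN2A, both of the INK4 family. CDKN2B, the p15 gene, was read by a pair of probe sets with the same course. At 34624_at the PC3 values were 5.34 and 5.42 with GFP and 5.43 and 5.33 with Notch1, while the LNCaP values went from 5.06 and 5.32 with GFP to 6.51 and 6.45 with Notch1. At 1607_at the PC3 values were 5.68 and 5.32, then 5.60 and 5.55, and the LNCaP values 5.48 and 5.52, then 6.38 and 6.31. The LNCaP Notch1 arrays were thus above all 6 other arrays at both probe sets, and those others ran between 5.06 and 5.68. CDKN2B rose 2.45-fold in LNCaP at the first (log2 change 1.29, SE 0.13, adjusted p = 5.59e-05) and 1.80-fold at the second (0.85, SE 0.14, adjusted p = 0.00153). In PC3 the changes were 0.00 (95% interval -0.28 to 0.28) and 0.07 (-0.23 to 0.37). The lines differed by 1.29 at 34624_at (adjusted p = 0.00116) and by 0.78 at 1607_at (adjusted p = 0.0235).

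The 1607_at difference was close to the threshold. It was called in only 1 of 8 fits that left out an array, the one without PC3 GFP replicate 2 (0.96, adjusted p = 0.00408). Without PC3 GFP replicate 1 it was 0.59 (adjusted p = 0.0575), without PC3 Notch1 replicates 1 and 2 it was 0.80 and 0.75 (adjusted p = 0.0698 and 0.0847), without LNCaP GFP replicates 1 and 2 it was 0.76 and 0.80 (adjusted p = 0.0566 and 0.0563), and without LNCaP Notch1 replicates 1 and 2 it was 0.74 and 0.81 (adjusted p = 0.0773 and 0.0617). The difference at 34624_at was called in all 8.

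CDKN2A, the p16 and ARF gene and the neighbour of CDKN2B among protein-coding genes of chromosome 9, moved up from a lower level in LNCaP. Its probe set 1713_s_at had log2 values of 7.76 and 7.66 in PC3 GFP, 7.29 and 7.32 in PC3 Notch1, 6.10 and 6.11 in LNCaP GFP and 6.63 and 6.73 in LNCaP Notch1. No group overlapped another, and the Notch1 groups of both lines lay between the GFP groups. CDKN2A rose 1.49-fold in LNCaP (log2 change 0.58, SE 0.11, adjusted p = 0.00495). In PC3 the value was -0.40 (SE 0.11, 95% interval -0.65 to -0.16), just outside the threshold (adjusted p = 0.0605). The block by replicate number let it pass (adjusted p = 0.0346), as did the fits with low values raised to log2 5 (adjusted p = 0.0388) and with the dimmest probe sets left out (adjusted p = 0.0449). These were the only 3 of 15 alternatives to call it. With each array left out the PC3 change ran from -0.45 to -0.36. The effects in the lines differed by 0.98 (adjusted p = 0.00269). The annotation does not say whether this probe set reads p16 transcripts, ARF transcripts or both.

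CDKN2D, the p19 gene, had no call in either line by limma. At 1797_at its log2 values were 6.91 and 6.85 in PC3 GFP, 6.77 and 6.75 in PC3 Notch1, 5.92 and 5.89 in LNCaP GFP and 6.21 and 6.02 in LNCaP Notch1. At 41497_at they were 7.32 and 6.91, then 6.80 and 6.55 in PC3, and 7.17 and 7.02, then 7.24 and 7.36 in LNCaP. With Notch1 both PC3 arrays were below, and both LNCaP arrays above, the GFP arrays of their line at both probe sets. Of all probe sets 35.4% lay below in PC3 and 32.9% above in LNCaP. The share that did both was not counted. The CDKN2D changes were -0.12 and -0.44 in PC3 (adjusted p = 0.530 and 0.120) and 0.21 and 0.20 in LNCaP (adjusted p = 0.282 and 0.458). At 41497_at the PC3 change was called in 1 of 15 alternatives, the one without PC3 GFP replicate 2 (-0.65). Without PC3 GFP replicate 1 it was -0.24. The lines differed by 0.33 and 0.64 in these changes (adjusted p = 0.195 and 0.0787). The second value was called in 2 of 14 alternatives, with the replicate block (adjusted p = 0.0372) and without PC3 GFP replicate 2 (0.85). Without PC3 GFP replicate 1 it was 0.44.

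**Figure D1:**
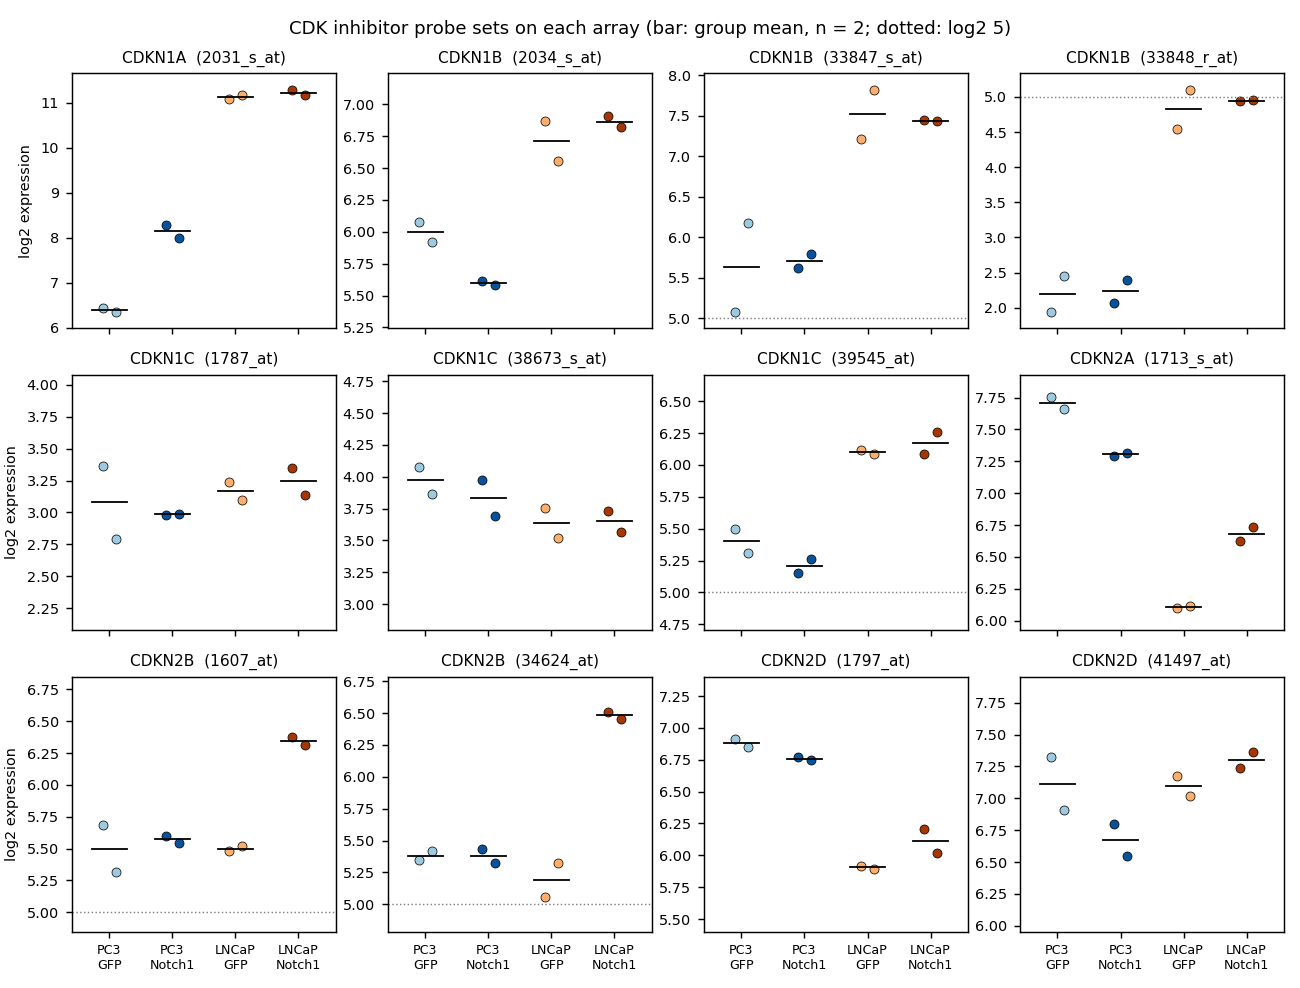
Log2 expression (y axis, scaled per panel) of the 12 CDK inhibitor probe sets by group (x axis). Points are arrays, bars are group means (n = 2) and the dotted line marks log2 5 where it falls in the panel. CDKN1A goes from 6.40 to 8.14 in PC3 and stays near 11.1 to 11.2 in LNCaP, and both CDKN2B probe sets stand apart only on the LNCaP Notch1 arrays.

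Over the family, activated Notch1 raised 1 of 12 probe sets in PC3 and lowered 0, where 6.2% of all probe sets were called (4.19% higher and 2.01% lower). At an unadjusted p under 0.05 the PC3 counts were 1 higher and 3 lower, against 11.2% and 13.9% of all. With the replicate block 3 were called, CDKN1A higher and CDKN1B (2034_s_at) and CDKN2A lower, where the block called 12.0% of all. Both PC3 Notch1 arrays lay below both GFP arrays at 5 of the 12 and above them at 1, against 35.4% and 20.6% of all probe sets. The median change of the 12 was -0.11 against -0.08 over all probe sets. In LNCaP 3 of 12 rose and 0 fell (3 and 0 also at an unadjusted p under 0.05, against 14.6% and 14.3% of all), where 17.3% of all probe sets were called (8.01% higher and 9.32% lower), and the median change was 0.14 against 0.04. The LNCaP Notch1 arrays lay above the GFP arrays at 5 of the 12 and below them at 0, against 32.9% and 24.1% of all. The effects differed between the lines at 4 of 12, against 14.2% of all (6.49% higher and 7.67% lower in LNCaP), with 3 larger in LNCaP and 1, CDKN1A, larger in PC3. With the replicate block 6 of 12 differed, CDKN1B (2034_s_at) and CDKN2D (41497_at) being added, against 22.9% of all. Probe sets of a gene share their transcripts, so these counts stand for 1 gene in PC3, 2 in LNCaP and 3 in the difference.

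**Figure D2:**
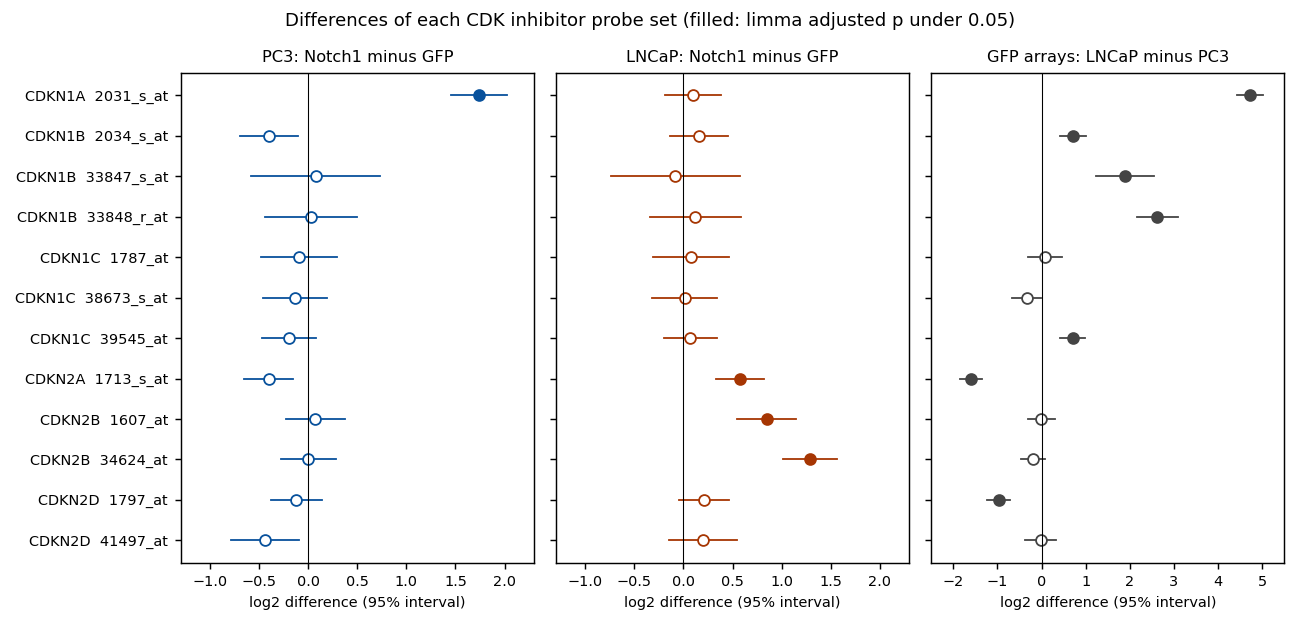
Log2 differences (x axis) with 95% intervals for the 12 probe sets (y axis): the Notch1 effect in PC3, the Notch1 effect in LNCaP, and LNCaP minus PC3 on the GFP arrays, filled where limma's adjusted p was under 0.05. The PC3 panel has 1 filled point, CDKN1A at 1.74, and the LNCaP panel has 3, at CDKN2A (0.58) and CDKN2B (0.85 and 1.29).

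On the GFP arrays 7 of 12 probe sets differed between the lines, 5 higher and 2 lower in LNCaP, a share near that of all probe sets, of which 58.8% were called (40.3% higher and 18.5% lower). The LNCaP arrays lay above the PC3 arrays at 5 of 12 and below them at 4, against 52.8% and 25.5% of all. CDKN1A was 26.4-fold higher in LNCaP (log2 difference 4.72, SE 0.13, adjusted p = 3.02e-10). All 3 CDKN1B probe sets were higher in LNCaP, by 0.71, 1.89 and 2.62 (adjusted p = 0.000893, 0.000246 and 1.29e-06), though the last, the dim 33848_r_at, kept only 0.05 of this once low values were set to log2 5 (adjusted p = 0.380). The probe sets of CDKN1C disagree, being higher at 39545_at (0.70, adjusted p = 0.000554) and having -0.33 at 38673_s_at (adjusted p = 0.0746, and 0.0139 with the replicate block) and 0.09 at 1787_at. CDKN2A was lower in LNCaP by 3.04-fold (log2 difference -1.60, SE 0.11, adjusted p = 4.16e-07). CDKN2D was lower at 1797_at (-0.97, adjusted p = 2.97e-05) and had -0.02 at 41497_at (adjusted p = 0.925), so its probe sets disagree. CDKN2B had 0.00 and -0.19 (adjusted p = 0.997 and 0.219).

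These levels carry a limit of scale. The sources used here do not say whether RMA was run once over all arrays or separately for each line. PC3 arrays had medians of 5.95 to 6.01 and LNCaP arrays of 6.28 to 6.36, and the median difference of all probe sets between the GFP groups was 0.22. When each array was centred on its median this became -0.06, and the 12 members then split into 5 higher and 4 lower, where all probe sets split into 26.5% higher and 30.7% lower, CDKN2B at 34624_at (-0.47, adjusted p = 0.0088) and CDKN1C at 38673_s_at (-0.61, adjusted p = 0.00462) joining the lower ones. CDKN1A (4.44), CDKN1B (0.43 to 2.34), CDKN2A (-1.88) and the 1797_at set of CDKN2D (-1.25) kept their calls and directions under that centring and under quantile normalization.

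Notch1 changed the gap between the lines. For CDKN1A the LNCaP minus PC3 difference of means was 4.72 with GFP and 3.08 with Notch1, and the order of levels was PC3 GFP, PC3 Notch1 and then both LNCaP groups, which did not differ beyond their spread. For CDKN2A the gap went from -1.60 to -0.62, in the order LNCaP GFP, LNCaP Notch1, PC3 Notch1, PC3 GFP, of which the last pair missed the threshold. For CDKN2B it went from -0.19 to 1.10 at 34624_at and from 0.00 to 0.77 at 1607_at, with LNCaP Notch1 above the other 3 groups. Of these, LNCaP GFP and PC3 GFP did not pass the test on the deposited scale and did so at 34624_at with median centring. The tests of these shifts are the differences between the lines given for each gene above. The Notch1 groups of the lines were not tested against each other, nor a Notch1 group against the GFP group of the other line.

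Genes with the most similar course over the 8 arrays were sought among named probe sets whose group means spanned at least 1 log2 unit, as a description without a test, since the line difference shapes most of these courses. CDKN1A was most like ATP1B1 (r = 0.997), NFX1 (0.995) and PAK2 (0.994). CDKN1B (33847_s_at) was most like ATPAF2 (0.990), ZMYM2 (0.989) and AKAP9 (0.987), and CDKN2A most like IFIT3 (0.992), DGKA (0.991) and NR3C1 (0.990). The brightest probe sets of CDKN1C, CDKN2B and CDKN2D spanned less than 1 unit and were not searched.

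A list of G1 kinases, cyclins and their activators held the targets of these inhibitors. Of its 15 genes, each read by its brightest probe set, 1 rose and 0 fell in PC3 (3 and 1 at an unadjusted p under 0.05), and 6 rose and 2 fell in LNCaP, with medians of 0.05 and 0.22, where 6.2% and 17.3% of all probe sets were called. The effects differed between the lines at 5 of the 15, 4 of them larger in LNCaP, against 14.2% of all probe sets. CCND1, cyclin D1 and the partner that INK4 proteins keep from CDK4, had log2 values of 9.85 and 9.90 in PC3 GFP, 9.88 and 9.90 in PC3 Notch1, 10.2 and 10.1 in LNCaP GFP and 11.7 and 11.6 in LNCaP Notch1. It rose by 1.53 in LNCaP (adjusted p = 8.41e-06) against 0.01 in PC3, and its other probe sets gave 1.48 and 1.90 in LNCaP, both called, and -0.19 and 0.65 in PC3, of which the latter was called (adjusted p = 0.0478). CCNA2, cyclin A2, rose by 2.09 in LNCaP and CDC25A, a phosphatase that activates CDK2, by 0.74. CDK4 itself had 0.17 in PC3 and -0.25 in LNCaP and was not called. CCNH and MNAT1, parts of the CDK-activating kinase, fell in LNCaP by 0.85 and 0.58. CCNH fell at 1 of 2 probe sets, and for MNAT1 only the brightest of 2 is given. MNAT1 was no longer called when replicate 2 of LNCaP Notch1 (-0.46, adjusted p = 0.0835) or of LNCaP GFP (-0.49, adjusted p = 0.0884) was omitted. CCNE2, cyclin E2, rose by 0.66 in PC3 and 0.76 in LNCaP, but in PC3 it was no longer called without PC3 Notch1 replicate 1 (0.62, adjusted p = 0.196) or 2 (0.70, adjusted p = 0.138), without PC3 GFP replicate 1 (0.45, adjusted p = 0.194), or without either LNCaP Notch1 array (0.66, adjusted p = 0.0657 for both). Setting low values to log2 5, which also changes the estimate of spread, ended its calls in PC3 (adjusted p = 0.162) and LNCaP (adjusted p = 0.0665).

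Among 11 genes of the RB family and the E2F factors it restrains, 0 were called in PC3 by limma, against 6.2% of all probe sets. At an unadjusted p under 0.05 the PC3 counts were 2 higher and 1 lower, against 11.2% and 13.9% of all. RB1 itself lay near or under log2 5, at means of 4.57 in PC3 GFP, 4.44 in PC3 Notch1, 4.98 in LNCaP GFP and 5.06 in LNCaP Notch1. In LNCaP 1 gene of the list rose and 2 fell, against 8.01% and 9.32% of all. E2F5, a repressive E2F, fell by 1.07, and its other probe sets by 0.93 and 0.78. RBL2, the pocket protein p130, had -0.80 (its other probe sets -0.54, called, and -0.20, not called) and lost its call without LNCaP GFP replicate 2 (-0.62, adjusted p = 0.139) or LNCaP Notch1 replicate 1 (-0.62, adjusted p = 0.180), or with the floor at log2 5 (adjusted p = 0.168). E2F1, the activator of S phase genes, had 0.47 (0.08 at its other probe set, not called) and lost its call without LNCaP GFP replicate 1 (0.48, adjusted p = 0.0775), LNCaP GFP replicate 2 (0.46, adjusted p = 0.102) or LNCaP Notch1 replicate 2 (0.39, adjusted p = 0.124).

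The machinery that degrades p27 and p21 was represented by 11 genes. In PC3 1 rose (CUL4B, a cullin, by 0.51) and 0 fell, against 4.19% and 2.01% of all probe sets. In LNCaP 4 rose and 2 fell, against 8.01% and 9.32% of all. CKS1B, which helps SKP2 to recognise p27, rose by 1.94 in LNCaP (adjusted p = 2.34e-05) against 0.29 in PC3 (adjusted p = 0.303), the latter called without PC3 GFP replicate 2 (0.57, adjusted p = 0.0251). CKS2, its relative, rose by 1.07 in LNCaP. SKP2 had log2 values of 6.50 and 6.40 in PC3 GFP, 7.23 and 6.92 in PC3 Notch1, 5.56 and 5.25 in LNCaP GFP and 6.44 and 5.92 in LNCaP Notch1. Its changes of 0.63 in PC3 (adjusted p = 0.0779, and 0.0118 with the replicate block) and 0.78 in LNCaP (adjusted p = 0.0154) were not shared by its other probe set (0.05 and -0.18). In LNCaP SKP2 was no longer called without LNCaP GFP replicate 2 (0.62, adjusted p = 0.104) or LNCaP Notch1 replicate 1 (0.52, adjusted p = 0.138). KPNA2, an importin, had 0.71 and lost its call without LNCaP GFP replicate 1 (0.50, adjusted p = 0.163), LNCaP Notch1 replicate 1 (0.73, adjusted p = 0.114) or replicate 2 (0.70, adjusted p = 0.132). COPS5, a subunit of the COP9 signalosome that promotes p27 export, had -0.57 and lost its call without LNCaP GFP replicate 2 (-0.52, adjusted p = 0.0921), LNCaP Notch1 replicate 1 (-0.59, adjusted p = 0.0685) or replicate 2 (-0.56, adjusted p = 0.0845). SKP1, the adaptor of the ligase, had -0.44 (adjusted p = 0.0262) and lost its call without LNCaP GFP replicate 1 (-0.48, adjusted p = 0.0823) or 2 (-0.41, adjusted p = 0.157), or LNCaP Notch1 replicate 1 (-0.52, adjusted p = 0.0528) or 2 (-0.36, adjusted p = 0.157). The floor at log2 5 also ended the LNCaP calls of SKP2, KPNA2 and COPS5 (adjusted p = 0.131, 0.165 and 0.066). CUL4B lost its PC3 call without any single array other than PC3 GFP replicate 2 (0.49 and 0.52 without PC3 Notch1 replicates 1 and 2, 0.37 without replicate 1 of PC3 GFP, 0.51 without an LNCaP array, adjusted p from 0.0538 to 0.230).

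Of 29 measured transcriptional regulators of these genes, 5 rose and 1 fell in PC3, against 4.19% and 2.01% of all probe sets. In LNCaP 7 rose and 4 fell, against 8.01% and 9.32% of all. SMAD3, which carries TGF-beta signals to the p21 and p15 genes, had 7.49 and 7.21 in PC3 GFP, 9.07 and 8.69 in PC3 Notch1, 6.81 and 6.54 in LNCaP GFP and 7.47 and 7.24 in LNCaP Notch1. Its rise was 1.53 in PC3 and 0.68 in LNCaP, and the difference of -0.84 passed the test (adjusted p = 0.0404), as it did at 1 of 3 other SMAD3 probe sets. It was no longer called in LNCaP without LNCaP GFP replicate 2 (0.55, adjusted p = 0.120) or LNCaP Notch1 replicate 1 (0.57, adjusted p = 0.139), or with the floor at log2 5 (adjusted p = 0.122). The other SMAD3 probe sets 1454_at, 38944_at and 1950_s_at gave 1.142, 1.355 and 0.365 in PC3 and 0.465, 0.708 and 0.251 in LNCaP. The values at 1950_s_at were not called (adjusted p = 0.103 and 0.204), while those at the 1454_at and 38944_at sets were. SMAD2 rose by 0.86 in PC3 (adjusted p = 0.00245) and had 0.33 in LNCaP.

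Factors with opposite changes in the lines stood beside it. CEBPB, a factor of stress and differentiation, rose by 0.85 in PC3 and fell by 1.13 in LNCaP (difference -1.97, adjusted p = 9.78e-05). KLF6, a zinc finger factor known to activate CDKN1A, rose by 1.28 in PC3 (adjusted p = 0.00515) and had -0.71 in LNCaP (adjusted p = 0.039), with a difference of -1.99 (adjusted p = 0.00169). Its PC3 call was lost without PC3 Notch1 replicate 1 (1.22, adjusted p = 0.0641), and its LNCaP call without either PC3 Notch1 array (adjusted p = 0.063), LNCaP GFP replicate 1 (-0.60, adjusted p = 0.157) or 2 (-0.82, adjusted p = 0.059), or LNCaP Notch1 replicate 2 (-0.33, adjusted p = 0.246). The floor at log2 5 ended both calls (adjusted p = 0.118 and 0.218). KLF4, another activator of CDKN1A, went the other way, at -0.65 in PC3 (adjusted p = 0.0179) and 0.56 in LNCaP (adjusted p = 0.0144). It was no longer called in PC3 when PC3 Notch1 replicate 1 (-0.75, adjusted p = 0.0593) or 2 (-0.55, adjusted p = 0.153) or replicate 1 of PC3 GFP (-0.64, adjusted p = 0.0736) was omitted. It lost its LNCaP call without LNCaP GFP replicate 1 (0.56, adjusted p = 0.0599) or 2 (0.56, adjusted p = 0.0692) or LNCaP Notch1 replicate 1 (0.42, adjusted p = 0.118), and both calls with the floor (adjusted p = 0.0887 and 0.0605). MYC, a repressor of CDKN1A and CDKN2B, fell by 0.84 in LNCaP (adjusted p = 0.000719) and had 0.11 in PC3. These values are from the brightest of the 4 MYC probe sets. EZH2, also on the list, had 0.49 in LNCaP (adjusted p = 0.0281) and 0.19 in PC3 (adjusted p = 0.382). Its values in the alternative fits are not given here. CEBPA had -0.49 in LNCaP (adjusted p = 0.0159) and lost its call without LNCaP GFP replicate 1 (-0.53, adjusted p = 0.0545) or 2 (-0.45, adjusted p = 0.112) or LNCaP Notch1 replicate 1 (-0.42, adjusted p = 0.105). ID1, an inhibitor of basic helix-loop-helix factors that is known to restrain CDKN2A, rose by 1.44 in LNCaP (adjusted p = 7.74e-05) and had 0.41 in PC3 (adjusted p = 0.123), the latter called with the replicate block (adjusted p = 0.0378) and when PC3 GFP replicate 2 was omitted (0.58, adjusted p = 0.037).

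Downstream of the CDKs, DNA synthesis and mitosis genes rose at 22 of 22 in LNCaP (median 1.40), beside the higher CDKN2A and CDKN2B. Over all probe sets 8.01% rose in LNCaP (median change 0.04) and 4.19% in PC3 (median change -0.08). In PC3, beside the higher CDKN1A, 3 of 22 rose and 0 fell (median 0.07): RRM2, a subunit of ribonucleotide reductase, by 0.95, CDC6, a factor that licenses replication origins, by 0.55 (adjusted p = 0.0352) and MCM6, a subunit of the replicative helicase, by 0.48 (adjusted p = 0.0499). CDC6 was no longer called when either LNCaP Notch1 array (0.55, adjusted p = 0.0582), PC3 Notch1 replicate 1 (0.55, adjusted p = 0.178) or 2 (0.55, adjusted p = 0.164), or replicate 1 of PC3 GFP (0.44, adjusted p = 0.195) was omitted. MCM6 was called without PC3 GFP replicate 2 and in no other fit that left out an array (0.49 and 0.46 without PC3 Notch1 replicates 1 and 2, 0.35 without replicate 1 of PC3 GFP, 0.48 without an LNCaP array, adjusted p from 0.0635 to 0.274). CDK1, the mitotic kinase, rose by 2.33 in LNCaP and had 0.05 in PC3, although its 40915_r_at probe set gave 0.76 there (adjusted p = 0.0139). RRM2 rose by 2.41 and MCM4, a helicase subunit, by 2.04 in LNCaP. TTK and BUB1, kinases of the spindle checkpoint, rose by 2.55 and 2.16 from means of 2.82 and 3.11, and once low values were set to log2 5 they had 0.37 and 0.27 (adjusted p = 0.548 and 0.491). BUB1 had 0.71 in PC3, called without PC3 GFP replicate 2 (log2 change 1.20, adjusted p = 0.00143).

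**Figure D3:**
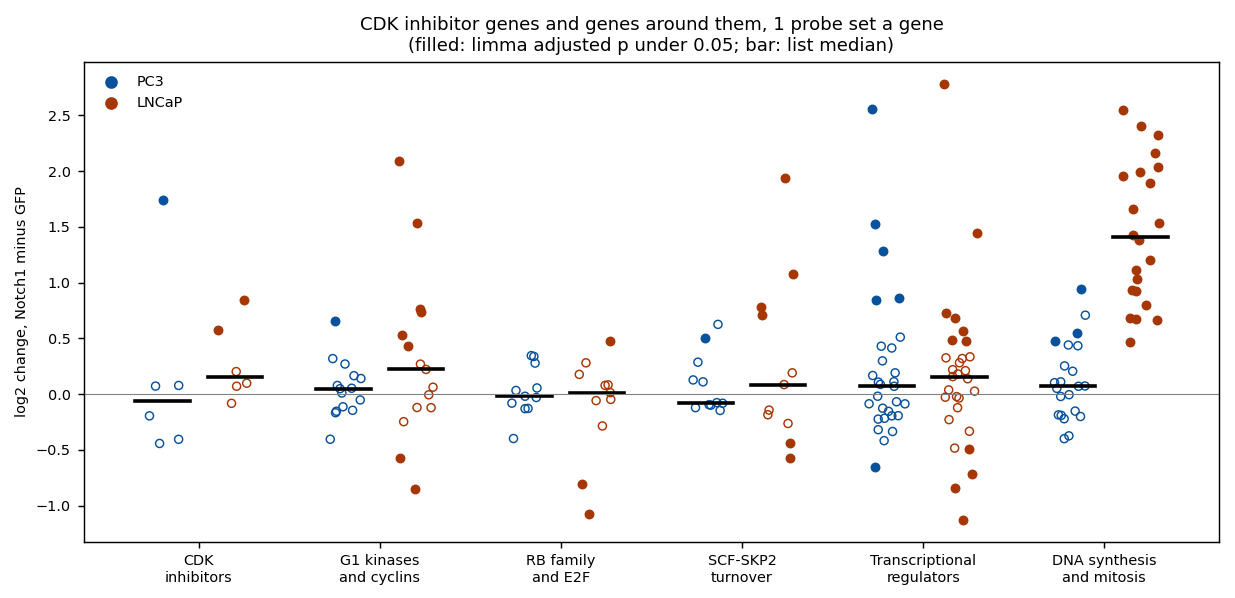
Log2 change with Notch1 (y axis) of single genes, each by its brightest probe set, in 6 gene lists (x axis) in PC3 and LNCaP, filled where limma's adjusted p was under 0.05, with bars at list medians. The DNA synthesis and mitosis genes sit above 0 throughout in LNCaP (median 1.40) and spread around 0 in PC3 (median 0.07), while the CDK inhibitor genes have 1 called gene in PC3 and 2 in LNCaP.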

How the data were processed

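The authors deposited log2 expression values for each probe set, made from the raw array files with robust multi-array average (RMA) in R, with no versions stated in the sources used here. All 8 arrays were used, 67 control probe sets were left out and 12558 were tested, of which 10943 had 1 gene symbol, 545 several and 1070 none. A linear model with 4 group means was fitted with limma 3.58.1 in R 4.3.3 (4 residual and 6.37 prior degrees of freedom). Tests were two-sided with Benjamini-Hochberg adjustment over all probe sets, and a call is an adjusted p under 0.05. The procedure was tested on simulated data.

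A gene with several probe sets entered a list by the one with the highest mean. The other probe sets of MNAT1, SKP1, SMAD2, CDC6, RB1 and MYC are not reported here. Named were all member probe sets, up to 5 called genes of each list with the largest change, HES1, SMAD3, SKP2, CCND1 and CDK4, identity genes as a check, and the 3 genes most like a member. RB1, CUL4B, MNAT1, SKP1, SMAD2, KLF4, MYC, EZH2, CEBPA, CDC6 and MCM6 were added after their values were seen. Members and lists were chosen with earlier results of these data known.

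Alternatives were median centring, quantile normalization, a floor at log2 5, a filter at the 25th percentile, trend and robust variance, the arrays of the comparison alone, the replicate block and each array left out. In each of the 6 pairs of groups the deviations of same-numbered arrays correlated, at 0.124 to 0.545. No source says what the number marks, and the main model had no block.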

Additional observations from a re-analysis of the deposited data

Results flagged for a closer look

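The effects of activated Notch1 differed between the lines (LNCaP minus PC3, log2 scale, limma) at CDKN1A by -1.64, at CDKN2A by 0.98 and at CDKN2B by 0.78 (1607_at) and 1.29 (34624_at). At CDKN2D every Notch1 array lay below the GFP arrays in PC3 and above them in LNCaP. Of all probe sets 35.4% lay below in PC3 and 32.9% above in LNCaP. The share that did both was not counted. The tested difference at CDKN2D did not pass at 1797_at (0.33, adjusted p = 0.195) or at 41497_at (0.64, adjusted p = 0.0787).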

How the results depend on the processing

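Of 220 alternative values of called results 9 lost the call and 14 of 476 others gained one, and of 39 changes of sign 0 had a call on either side. The number of probe sets called in PC3, 1 as reported, was 2 with the floor (2.76% of all probe sets called), 2 with the filter on dim probe sets (8.55%), 3 with the replicate block (12.0%) and 1 to 2 with each array left out. The count in LNCaP was 3 throughout, that of differences between the lines 3 to 6 and that between GFP groups 6 to 9. CDKN1A in PC3 (1.60 to 1.88), CDKN2A in LNCaP (0.52 to 0.63) and CDKN2B in LNCaP (0.79 to 0.88 and 1.16 to 1.42) kept their calls in all 15 alternatives. The difference at CDKN2B 1607_at lost its call with the floor (adjusted p = 0.083), which also changes the estimate of spread. The comparison-only fit could not be applied to the difference between the lines, which needs all arrays.

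Uncalled values changed sign as follows. With median centring, CDKN2B 34624_at had 0.037 in PC3, CDKN1C 38673_s_at -0.050 in LNCaP, CDKN1B 33848_r_at a difference of -0.0058 and CDKN1C 1787_at -0.19 between GFP groups. With quantile normalization, CDKN2B 34624_at had 0.048 and CDKN1C 1787_at 0.020 in PC3, CDKN1C 38673_s_at -0.052 in LNCaP, CDKN1B 33848_r_at and CDKN1C 1787_at differences of -0.11 and -0.00049, and the latter -0.30 between GFP groups. With the floor, CDKN1B 33848_r_at had -0.051 in LNCaP and a difference of -0.051. The cause was not tested.

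With each array left out, PC3 changes ran from -0.47 to 0.62 (CDKN1B 33847_s_at), -0.23 to 0.29 (33848_r_at), -0.38 to 0.19 (CDKN1C 1787_at), -0.28 to 0.0074 (38673_s_at), -0.11 to 0.25 (CDKN2B 1607_at) and -0.055 to 0.053 (34624_at). LNCaP changes ran from -0.0010 to 0.31 (CDKN1B 2034_s_at), -0.38 to 0.22 (33847_s_at), -0.15 to 0.40 (33848_r_at), -0.031 to 0.18 (CDKN1C 1787_at), -0.11 to 0.13 (38673_s_at) and -0.015 to 0.16 (39545_at). Differences ran from -0.71 to 0.39 and -0.18 to 0.37 (CDKN1B 33847_s_at and 33848_r_at) and -0.11 to 0.46 (CDKN1C 1787_at), and GFP values from -0.20 to 0.37 (CDKN1C 1787_at), -0.18 to 0.18 (CDKN2B 1607_at) and -0.22 to 0.19 (CDKN2D 41497_at). Signals under log2 5 at CDKN1C and CDKN1B 33848_r_at limit what these arrays can show of those genes.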

Other observations

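On the GFP arrays the listed genes of the machinery that degrades p27 and p21 were lower in LNCaP at 7 of 11 and higher at 1. Of all probe sets 18.5% were lower and 40.3% higher. CKS1B was at -3.42, CKS2 at -1.96 and SKP2 at -1.04 (LNCaP minus PC3, log2 scale, adjusted p = 2.63e-08, 2.14e-07 and 0.000614), while the other SKP2 probe set had 0.33 (adjusted p = 0.133). DNA synthesis and mitosis genes were lower in LNCaP at 17 of 22 and higher at 0, with CDK1 at -2.76. Among 11 RB and E2F genes 6 were higher and 2 lower, near the shares of all probe sets, RBL2 at 2.13.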
